A study of Mus musculus with 29 samples.

Results

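The enzymes that make serine and pass its carbon into the folate pool were followed in brown adipose tissue (BAT) and skeletal muscle (SkM) of mice on calorie restriction (CR), treadmill exercise (EX) or both (CREX). They are Phgdh, Psat1, Psph, Shmt1, Shmt2, Mthfd1, Mthfd1l, Mthfd2, Aldh1l1 and Aldh1l2, 10 of the 24770 gene symbols of the count table, and each was found there by its symbol. The set was chosen by the fold change and test of Psat1 between CREX and CR in BAT, where it had come out as the only gene called, so every value of that contrast describes how the set was chosen and is given without a test. All mice were male C57BL/6J wild-type animals, 8 weeks old when the interventions started, and the groups were sedentary ad libitum controls, CR lowered stepwise to 70% of ad libitum intake, EX on a treadmill for 1 h on 5 days a week, and CREX with both, each for 8 weeks. All mice, controls included, were fasted for 6 h before harvest, which came 24 h after the last bout. RNA was sequenced from 15 BAT libraries (3 for control, otherwise 4 a group) and 14 gastrocnemius muscle libraries (3 each for CR and CREX, 4 each for control and EX), and the records do not say which BAT and muscle libraries came from the same mouse.

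Phgdh, Psat1 and Psph act in that order to build serine from the glycolytic intermediate 3-phosphoglycerate. Psat1 is the transaminase in the middle, and it takes the amino group from glutamate. Serine hydroxymethyltransferases, Shmt1 in the cytosol and Shmt2 in mitochondria, then split serine into glycine and a carbon unit carried by tetrahydrofolate. Mthfd2 and Mthfd1l oxidize that unit to formate in mitochondria, the trifunctional Mthfd1 handles it in the cytosol, and Aldh1l1 (cytosol) and Aldh1l2 (mitochondria) remove it as carbon dioxide while making NADPH. Brown adipocytes burn fuel for heat and make fat at a high rate, which draws on NADPH. Phgdh, Psat1, Shmt2 and Mthfd2 are known targets of the transcription factor ATF4.

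The upstream sequences of the 4 genes that the results turn on are shown so that the stretch before each start can be read beside its values. Each is the 250 bases before a RefSeq start on GRCm38.p6, written 5′ to 3′ on the strand of the gene, with capitals for letters that matched a searched motif (CCAAT, its complement ATTGG, or the complement of TGACNNNGC). Psat1 lies on chr19 (minus strand) with its window at chr19:15925060-15925309, Phgdh on chr3 (minus) at chr3:98339970-98340219, Shmt1 on chr11 (minus) at chr11:60811266-60811515, and Aldh1l1 on chr6 (plus) at chr6:90550543-90550792. The genes span chr19:15905123-15925059, chr3:98313171-98339969, chr11:60788897-60811265 and chr6:90550768-90599171 in RefSeq, so the last bases of the Aldh1l1 window lie inside the longest annotated transcript span of that gene.
Psat1: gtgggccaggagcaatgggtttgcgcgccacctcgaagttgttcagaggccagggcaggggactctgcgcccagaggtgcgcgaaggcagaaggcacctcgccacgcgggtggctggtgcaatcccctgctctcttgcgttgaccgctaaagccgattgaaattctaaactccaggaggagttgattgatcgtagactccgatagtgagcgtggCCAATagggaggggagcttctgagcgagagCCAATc
Phgdh: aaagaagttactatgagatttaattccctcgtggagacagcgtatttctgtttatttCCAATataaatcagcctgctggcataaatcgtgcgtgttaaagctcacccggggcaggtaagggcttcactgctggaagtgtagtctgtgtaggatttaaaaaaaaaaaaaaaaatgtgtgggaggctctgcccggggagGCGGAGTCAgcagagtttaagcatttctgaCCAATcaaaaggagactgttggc
Shmt1: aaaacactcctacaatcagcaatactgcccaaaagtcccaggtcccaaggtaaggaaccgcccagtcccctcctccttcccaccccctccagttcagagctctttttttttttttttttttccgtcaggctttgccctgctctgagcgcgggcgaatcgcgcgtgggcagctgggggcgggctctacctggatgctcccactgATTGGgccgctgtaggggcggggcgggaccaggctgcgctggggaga
Aldh1l1: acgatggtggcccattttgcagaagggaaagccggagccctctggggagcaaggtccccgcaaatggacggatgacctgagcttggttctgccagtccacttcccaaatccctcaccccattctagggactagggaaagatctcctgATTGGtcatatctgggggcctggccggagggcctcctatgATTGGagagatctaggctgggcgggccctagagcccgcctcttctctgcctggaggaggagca
The motifs searched on both strands were TGATGNAA (core of the composite element bound by C/EBP and ATF factors), TGACGTCA (the cAMP response element), CACGTG (an E-box) and TGACNNNGC (core of the antioxidant response element). The first 3 were in none of the 10 windows of the 9 enzymes with a window, against 3.45%, 1.55% and 6.02% of 32851 RefSeq windows of the same length, and TGACNNNGC was in Phgdh alone, against 10.2% of all windows. CCAAT, added after the windows had been read, was in windows of 7 of the 9 enzymes (Psat1, Phgdh, Psph, Shmt1, Mthfd1, Mthfd2 and Aldh1l1), against 33.8% of all windows and 35.4% of those of protein-coding genes. In the Psat1 window its copies begin 36 and 6 bases before the start, and a second Psat1 window at a downstream start held none of the letters searched. These matches describe the letters only.

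In BAT of control mice the enzymes spanned a wide range of levels. Per kilobase of exon (CPM, the counts scaled to library size, divided by exon length in kb, with both tissues scaled together), Aldh1l1 stood at 8.73 ± 0.946 CPM per kb (SD, n = 3), Psph at 8.67 ± 1.41 and Shmt1 at 7.90 ± 0.596, and these 3 did not differ beyond their spread. Mthfd1 (5.13 ± 0.286) and Shmt2 (4.56 ± 0.583) came next, followed by Phgdh at 2.77 ± 0.825 and Psat1 at 0.754 ± 0.105, so the middle enzyme of serine synthesis was the lowest of the 3 transcripts of that path. Mthfd2 stood at 0.459 ± 0.0803, and Aldh1l2 (0.0482 ± 0.0140) and Mthfd1l (0.0481 ± 0.0164) were close to the detection floor.

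In muscle the order was different, with the mitochondrial Shmt2 at 13.1 ± 0.812 CPM per kb (SD, n = 4) and the cytosolic Mthfd1 at 8.91 ± 0.887 on top. Psph followed at 3.95 ± 0.721, then Shmt1 at 1.60 ± 0.160 and Mthfd2 at 1.55 ± 0.391, which overlapped, and Aldh1l1 at 1.05 ± 0.148. Aldh1l2 (0.599 ± 0.221) and Phgdh (0.570 ± 0.221) overlapped as well, and Psat1 (0.235 ± 0.0362) and Mthfd1l (0.0749 ± 0.0468) were lowest.

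**Figure D1:**
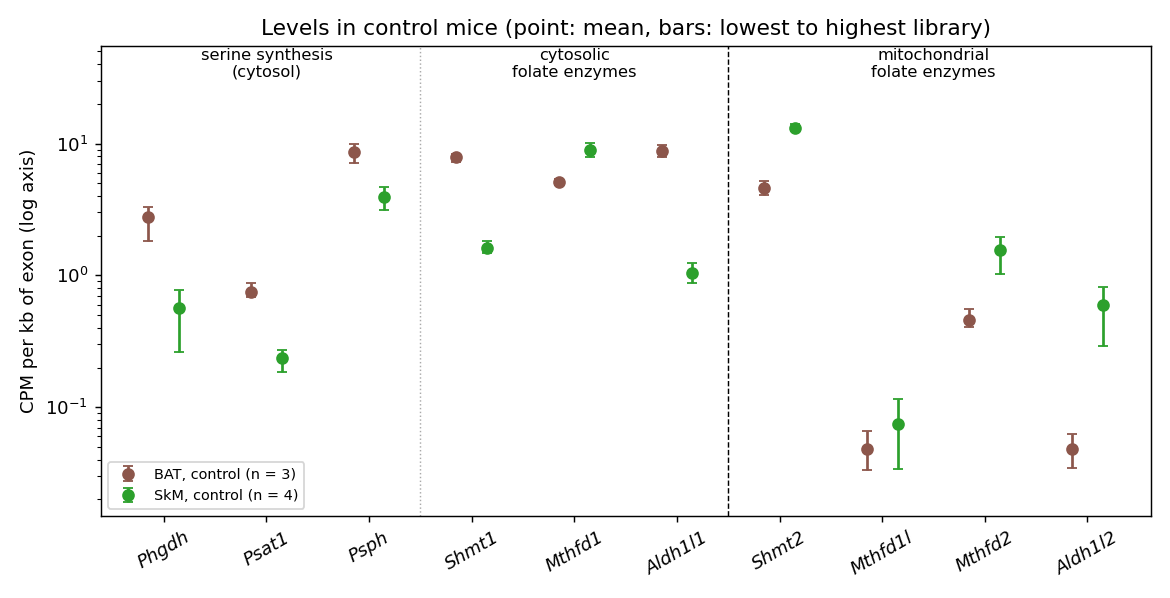
Levels of the 10 enzymes in control mice, in CPM per kb of exon on a log axis, with points for the mean and bars from the lowest to the highest library of BAT (n = 3) and SkM (n = 4). The mitochondrial Shmt2, Mthfd2 and Aldh1l2 and the cytosolic Mthfd1 sit higher in SkM, and the serine synthesis enzymes, Shmt1 and Aldh1l1 sit higher in BAT.

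Compared directly between the tissues of control mice, 9 of 9 tested enzymes differed (edgeR, adjusted p under 0.05 and fold change above 1.5), against 60.0% of all 13797 genes tested (29.8% higher in BAT, 30.2% higher in muscle). Higher in BAT were Aldh1l1 (8.44-fold, log2 fold change 3.08, SE 0.12, edgeR adjusted p = 8.03e-10), Shmt1 (log2 2.32, SE 0.11, edgeR adjusted p = 2.57e-09), and all of serine synthesis, namely Phgdh (log2 2.29, SE 0.30), Psat1 (1.69, SE 0.22) and Psph (1.16, SE 0.15). Higher in muscle were Aldh1l2 (log2 fold change -3.61, SE 0.40), Mthfd2 (-1.73, SE 0.25), Shmt2 (-1.51, SE 0.11) and the cytosolic Mthfd1 (-0.78, SE 0.10). The Shmt and Aldh1l pairs went opposite ways between the tissues, with Shmt1 and Aldh1l1 higher in BAT and Shmt2 and Aldh1l2 higher in muscle. The cytosolic Mthfd1 and the mitochondrial Mthfd2 were both higher in muscle. Mthfd1l did not pass the filter on low counts. Psph shares 26.1% of its exon bases with Cct6a on the opposite strand. Whether reads in those shared bases were told apart is unknown, because the strand of the libraries was not stated. The same holds for smaller parts, shared with other genes, of Aldh1l2 (17.3%), Aldh1l1 (10.5%), Shmt1 (6.44%), Shmt2 (1.39%) and Mthfd1 (1.14%).

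The labelled tissues carried their own markers. The summed level of 10 brown adipocyte markers was 11281 to 16571 CPM over the BAT libraries and 103 to 259 CPM over the muscle libraries. The summed level of 10 fast muscle fibre markers, led by Acta1, varied widely between BAT libraries, from 0.00257% to 5.30% of the level of control muscle. It was 3.34 to 745 CPM in control, 21.7 to 1598 in CR, 6.48 to 4226 in EX and 1148 to 6879 in CREX BAT. In muscle, hepatocyte markers, led by Alb in CR and by Trf in the other groups, summed to 65.5, 284 and 301 CPM in the CR libraries against 6.81 to 10.8 CPM in control, 2.98 to 17.1 in EX and 89.8, 7.02 and 13.0 in CREX. The libraries of each tissue had similar depth, 21047242 to 24919377 counts in BAT and 23050918 to 23425284 in SkM. In such bulk tissue, fewer cells of a type and less RNA per cell cannot be told apart.

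Psat1 was low and even in BAT of 3 groups and high in the fourth. It stood at 2.36, 2.94 and 2.31 CPM in control, at 2.82, 2.37, 2.72 and 3.09 in CR, at 2.40, 3.29, 2.96 and 2.80 in EX, and at 5.83, 5.63, 6.28 and 6.87 CPM in CREX. Every CREX library was above every other BAT library, and the other 3 groups overlapped. Psat1 was 2.24-fold higher in CREX than in CR (log2 fold change 1.16, SE 0.13), which is the contrast that chose it. By edgeR it was the only gene of 13112 tested that was called there (0.00763%). The paper, with DESeq2, reports more genes for this contrast. In contrasts that reuse the same CREX libraries it was 2.14-fold higher than in EX (log2 1.10, SE 0.14) and 2.43-fold higher than in control (log2 1.28, SE 0.15), and these are also given as a description. The responses of Psat1 to either intervention alone were small. For CR against control the log2 fold change was 0.12 (SE 0.17), a description, since the CR libraries are also in the contrast that chose the gene. For EX against control it was 0.18 (SE 0.18, edgeR adjusted p = 0.813). The difference of its CR effect with and without running was log2 0.98 (SE 0.20), again a description. All CREX libraries held at least 1148 CPM of muscle fibre markers. The EX libraries held 1356, 4226, 4124 and 6.48 CPM of these markers, in order of replicate. Their Psat1 values were 2.40, 3.29, 2.96 and 2.80 CPM. In CREX against CR, 0 enzymes were called with the muscle score (the mean log2(CPM + 1) of the muscle markers) as a covariate or among the libraries with a score over 4, so the Psat1 call was lost in both. Its log2 fold change for CREX against EX was 1.03 to 1.17 over 17 alternatives, those with the muscle score among them. The part of muscle RNA in the Psat1 values of CREX was not tested.

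**Figure D2:**
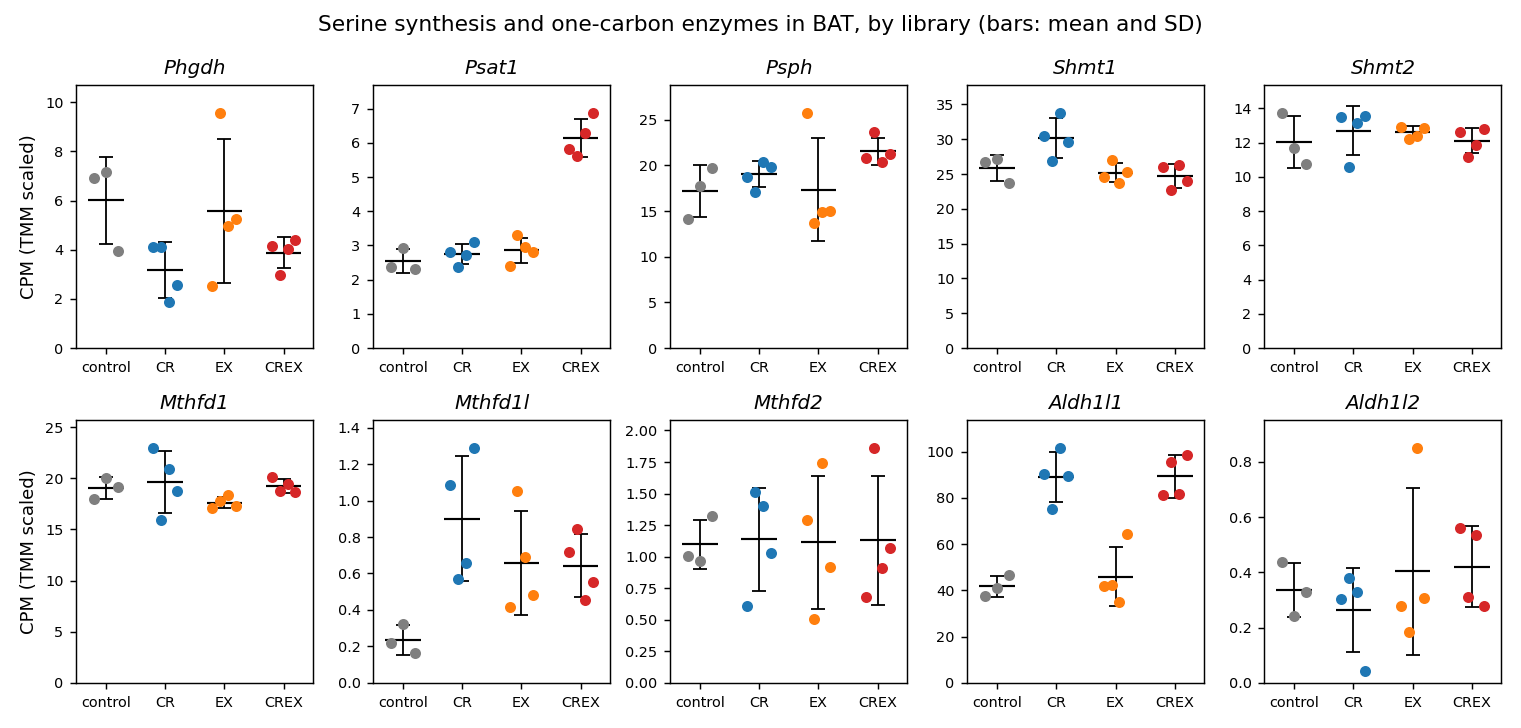
CPM of the 10 enzymes in each BAT library, scaled by TMM factors, with group means and SD as bars (control n = 3, others n = 4). The 4 CREX libraries of Psat1 lie between 5.63 and 6.87 CPM above all other libraries, and the CR and CREX libraries of Aldh1l1 lie between 75.1 and 102 CPM above all control and EX libraries.

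The genes whose levels followed Psat1 most closely over the 15 BAT libraries (Pearson r of log2 CPM among 13921 genes) were Unc5a (0.919), Trf (0.916), Clmp (0.892), Serpina3c (0.880) and Gldc (0.871). The 4 CREX libraries stand apart in Psat1, and over the other 11 libraries the values were 0.579 for Unc5a, 0.725 for Trf, 0.732 for Clmp, 0.554 for Serpina3c and 0.589 for Gldc. Trf, for transferrin, is also the most abundant of the hepatocyte markers in BAT, where those markers summed to 136 to 281 CPM in CREX and 58.1 to 204 CPM in the other groups. That sum mainly repeats Trf, whose mean was 201 CPM in CREX beside a median sum of 219 CPM. In control its mean was 88.3 CPM beside a median sum of 92.0 CPM. Of the 10 markers, 2 in CREX and 3 in control had over 3 counts in every library. The other enzymes of the set were far from the top, with Aldh1l1 the nearest (r 0.529, rank 780) and Shmt1 the farthest (r -0.30, rank 10918). Over the 14 muscle libraries the closest genes among 13609 were Hsd17b12 (0.908), Acaca (0.899), Sh2b2 (0.895), Tkt (0.852) and Nrg4 (0.849), of which Acaca is the rate-limiting enzyme of fatty acid synthesis and Tkt an enzyme of the pentose phosphate pathway. With Spearman's rank correlation 2 of the 5 BAT genes, Trf and Clmp, and 0 of the 5 muscle genes stayed in the list.

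Gldc, the glycine decarboxylase of the glycine cleavage system, had few reads and, like Psat1, its highest group mean in CREX. It stood at 0.219, 0.322 and 0.413 CPM in control BAT, at 0.391, 0.331, 0.494 and 0.688 in CR, at 0.231, 0.412, 0.445 and 0.350 in EX, and at 0.998, 0.576, 1.16 and 0.987 CPM in CREX, where replicate 2 fell inside the CR range. These are 5 to 28 counts per library. Gldc was higher in CREX than in EX (log2 fold change 1.35, SE 0.32) and than in control (1.54, SE 0.35). Its difference from CR was log2 0.96. Gldc was singled out by its likeness to Psat1 in these same libraries, CREX included. These values are therefore given as a description, and its change is not independent of that of Psat1.

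Phgdh, which commits 3-phosphoglycerate to serine, did not pass the test in restricted BAT. It stood at 6.91, 7.16 and 3.96 CPM in control and at 4.12, 4.12, 1.90 and 2.58 CPM in CR, so that the third control library overlapped the CR group. The log2 fold change was -0.92 (SE 0.31, edgeR adjusted p = 0.0643). The call depended on the settings, with adjusted p = 0.0149 by DESeq2, and edgeR adjusted p = 0.0350 without control replicate 3 (log2 -1.14), which had the lowest muscle markers of its group, and 0.0156 among the libraries whose muscle score was over 4 (log2 -1.64, with a lone control library assumed to vary like the others). In CREX against EX it was log2 -0.53 (SE 0.35, edgeR adjusted p = 0.384), with an EX group spread from 2.54 to 9.56 CPM, and in CREX against control -0.62 (SE 0.22, edgeR adjusted p = 0.0877), called without control replicate 3 (-0.85, edgeR adjusted p = 0.0275). In the CREX group Phgdh averaged 3.89 ± 0.627 CPM (SD, n = 4) where Psat1 was at its highest. Psph, the last step, was not called in the BAT comparisons. The group means of Psph were 17.2 to 21.5 CPM, and CREX (20.4 to 23.6 CPM) lay above control (14.2 to 19.7 CPM) at log2 0.33 (SE 0.11, edgeR adjusted p = 0.0788). Against control it was called with the muscle score as a covariate (log2 0.69, edgeR adjusted p = 0.0387).

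Aldh1l1, the cytosolic formyltetrahydrofolate dehydrogenase, rose about 2-fold under restriction in BAT whether or not the mice ran. In control mice it stood at 37.6, 41.0 and 46.7 CPM and in CR mice at 90.5, 75.1, 102 and 89.4 CPM. The groups did not overlap, and Aldh1l1 rose 2.13-fold (log2 fold change 1.09, SE 0.11, edgeR adjusted p = 0.000199). In EX mice it stood at 41.7, 42.2, 35.1 and 64.5 CPM and in CREX mice at 81.2, 95.7, 81.6 and 98.5 CPM, again with no overlap (1.94-fold, log2 0.96, SE 0.17, edgeR adjusted p = 0.0160). It was called in both restriction comparisons under every alternative tried. For CR, the split at a muscle score over 4 left 1 control and 2 CR libraries. CREX and CR overlapped (log2 0.00, SE 0.10, a description), and CREX was 2.15-fold above control (log2 1.10, SE 0.10, edgeR adjusted p = 0.000404). EX alone gave log2 0.14 (SE 0.20, edgeR adjusted p = 0.878), and the effects of CR with and without running differed by log2 -0.13 (SE 0.22, edgeR adjusted p = 0.956). Among other markers, those of Schwann cells and nerve summed to 75.3 to 104 CPM in control and 76.2 to 93.1 in EX against 42.1 to 56.0 in CR and 41.4 to 54.7 in CREX, and endothelial markers to 299 to 333 and 265 to 311 CPM against 219 to 274 and 223 to 263. Preadipocyte and fibroblast markers summed to 241 to 304 CPM in control and 263 to 990 in EX against 140 to 174 in CR and 166 to 179 in CREX, and macrophage markers to 49.5 to 53.7 and 51.7 to 83.9 against 25.9 to 42.5 and 28.5 to 56.3. Their part in the Aldh1l1 values was not tested.

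Mthfd1l, the mitochondrial enzyme that releases formate, rose from a very low level in CR BAT. It stood at 0.219, 0.322 and 0.165 CPM in control (4 to 8 counts) and at 1.09, 0.568, 0.659 and 1.29 CPM in CR (12 to 30 counts), without overlap, and the log2 fold change was 1.91 (SE 0.41, edgeR adjusted p = 0.00908). Among the libraries with a muscle score over 4 it was not called (2.11, SE 0.74, edgeR adjusted p = 0.164), but only 1 control and 2 CR libraries remained there, the lone control was assumed to vary like the others, and the fold was not smaller. EX libraries were also all above control (0.416 to 1.05 CPM, log2 1.47, SE 0.45, edgeR adjusted p = 0.515), as were CREX libraries (0.454 to 0.842 CPM, log2 1.43, SE 0.38, edgeR adjusted p = 0.0330). The CREX call was lost without control replicate 1, 2 or 3 or CREX replicate 1, 2 or 4, at edgeR adjusted p between 0.0529 and 0.119, and also with DESeq2 (adjusted p = 0.0635), with the muscle score as a covariate (edgeR adjusted p = 0.224) and among the libraries with a score over 4 (0.305, with 1 control library left). For CREX against EX the log2 fold change was -0.05 (SE 0.35, edgeR adjusted p = 0.946), with overlapping groups.

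The remaining folate enzymes of BAT stayed near their control level. Shmt1 was 26.8, 27.1 and 23.7 CPM in control and 30.5, 26.9, 33.7 and 29.6 CPM in CR (log2 fold change 0.22, SE 0.09, edgeR adjusted p = 0.0962), and the CREX libraries (22.7 to 26.3 CPM) lay below the CR libraries. Shmt2 (group means 12.0 to 12.7 CPM), Mthfd1 (17.6 to 19.6 CPM) and Mthfd2 (1.10 to 1.14 CPM) had absolute log2 fold changes of at most 0.12 in all 5 comparisons between groups. Aldh1l2, at 1 to 21 counts per library, passed the low-count filter only in CREX against control (log2 0.33, SE 0.40, edgeR adjusted p = 0.606).

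Psat1 is left out of the counts of BAT that use the CR or CREX libraries, since those libraries chose the set. In CR against control BAT, 2 of the other 8 enzymes tested were called, Aldh1l1 and Mthfd1l, both upward, against 10.7% of all 13323 genes tested (3.87% upward). For CREX against EX the call then fell on 1 of the other 8 enzymes tested, Aldh1l1, against 4.48% of 13251 genes (1.86% upward), and in CREX against control on 2 of the other 9, Aldh1l1 and Mthfd1l, against 8.3% of 13432 genes (3.42% upward). Without Psat1, the median log2 fold change of the enzymes tested was 0.11 for CR against control and -0.015 for CREX against EX, beside 0.0045 and -0.002 over all genes tested. EX against control called 0 enzymes and 0 of 13407 genes by edgeR (0.0%). There 1 enzyme, Mthfd1l, had an unadjusted p under 0.05, as did 972 of the 13407 genes. The interaction of CR and EX likewise gave 0 of the 9 enzymes other than Psat1 and 0 of 13922 genes (0.0%). An unadjusted p under 0.05 was seen for 2 of these enzymes and for 800 of the 13922 genes.

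**Figure D3:**
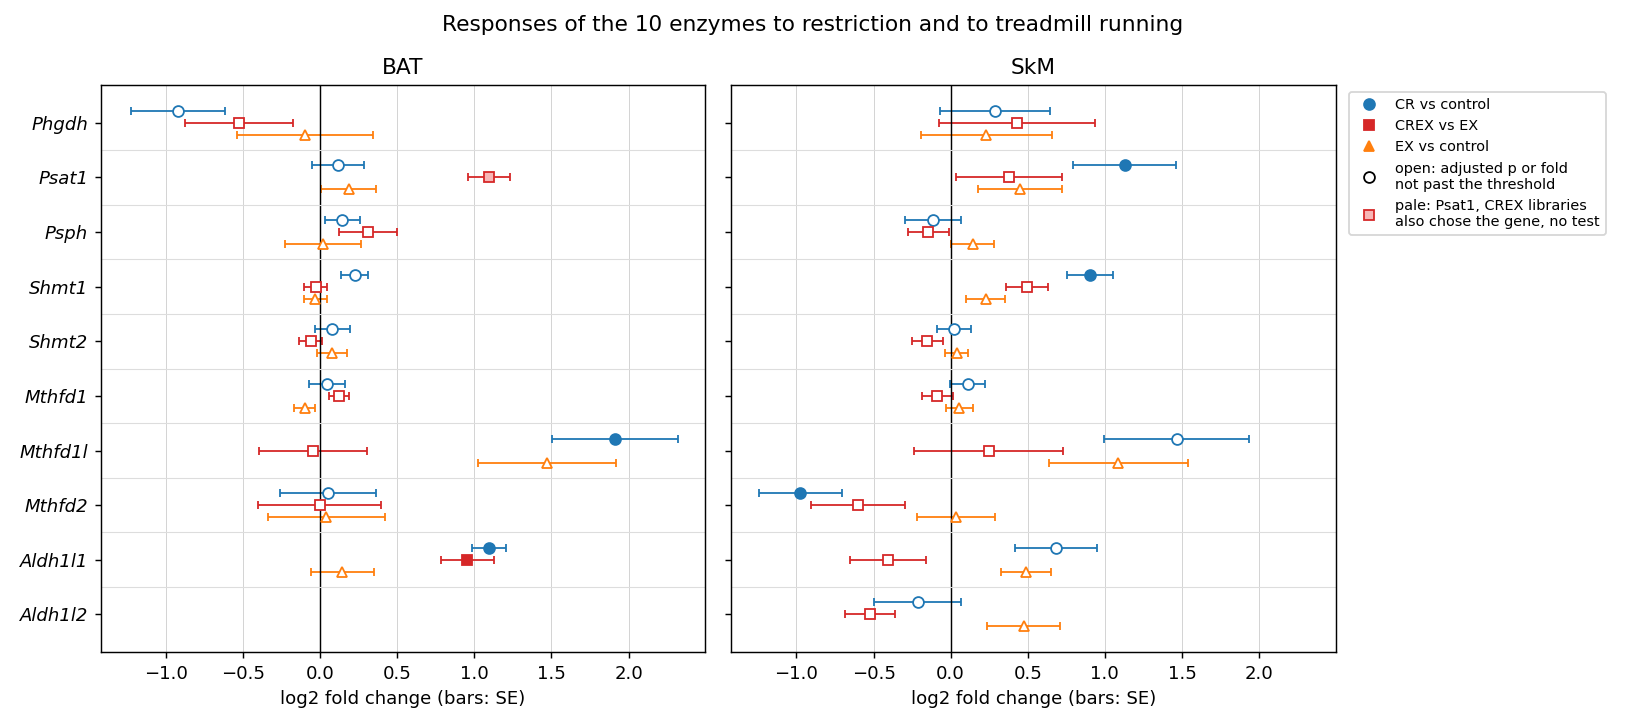
Log2 fold changes of the 10 enzymes with SE in BAT (left) and SkM (right) for CR against control, CREX against EX and EX against control, with filled symbols for calls at adjusted p under 0.05 and fold change above 1.5, open symbols for the rest and a pale square for Psat1 in BAT, which is a description. Aldh1l1 is filled for both restriction comparisons of BAT, and Shmt1 (0.90), Psat1 (1.13) and Mthfd2 (-0.97) are filled for CR in SkM.

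In skeletal muscle, the calls fell on other members of the set. Shmt1, the cytosolic serine hydroxymethyltransferase, stood at 4.28, 4.89, 3.94 and 3.99 CPM in control and at 8.47, 8.89 and 6.53 CPM in CR. All CR libraries were above all control libraries, and Shmt1 rose 1.87-fold (log2 fold change 0.90, SE 0.15, edgeR adjusted p = 0.00365), a call that held under every alternative. In EX it stood at 5.11, 5.65, 4.93 and 4.33 CPM and in CREX at 6.70, 6.98 and 7.49 CPM. These groups did not overlap either, but the change of 1.41-fold (log2 0.49, SE 0.14, edgeR adjusted p = 0.0411) was below the fold minimum. Against control, CREX was 1.65-fold higher (log2 0.72, SE 0.14, edgeR adjusted p = 0.00963). The CREX libraries of replicates 2 and 3 had hepatocyte marker sums of 7.02 and 13.0 CPM, near the 6.81 to 10.8 CPM of control, with Shmt1 at 6.98 and 7.49 CPM, and replicate 1 had a sum of 89.8 CPM with Shmt1 at 6.70 CPM. In CR the hepatocyte sums were higher in all libraries. Their part in the Shmt1 values of CR and CREX was not tested. Endothelial markers were 132 to 176 CPM in CR and 92.7 to 194 CPM in CREX muscle against 213 to 276 CPM in control and 216 to 268 CPM in EX. The fast muscle fibre markers summed to 154629 to 210784 CPM in CR and 156535 to 202476 in CREX muscle. In control they summed to 122951 to 137490 CPM and in EX to 135038 to 154073, and their part in the enzyme values was not tested. Slow fibre markers, led by Myh7 in control, CR and EX and by Myl3 in CREX, summed to 18.6 to 546 CPM in CREX against 322 to 1683 CPM in EX, 928 to 1674 in control and 1497 to 1771 in CR, and their part was not tested.

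**Figure D4:**
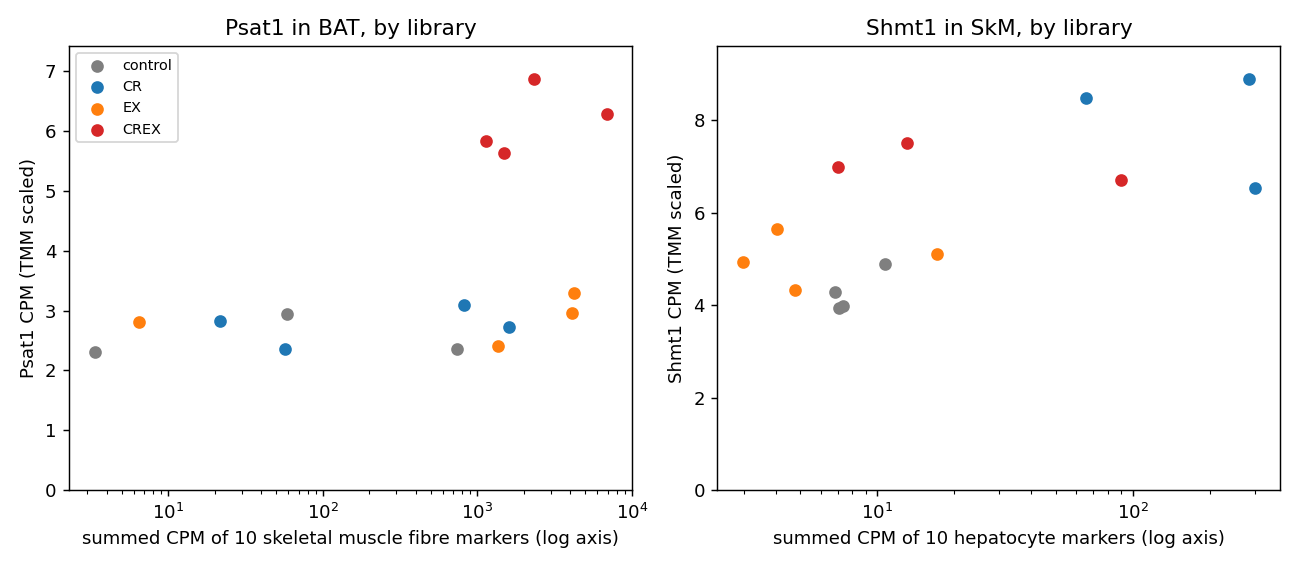
Psat1 CPM against the summed CPM of 10 muscle fibre markers in the 15 BAT libraries (left), and Shmt1 CPM against the summed CPM of 10 hepatocyte markers in the 14 SkM libraries (right), with the marker sums on log axes and groups by colour. In BAT, muscle markers span 6.48 to 4226 CPM in EX, with Psat1 at 2.40 to 3.29 CPM. In CREX they span 1148 to 6879 CPM, with Psat1 at 5.63 to 6.87 CPM. In SkM, hepatocyte markers span 65.5 to 301 CPM in CR, with Shmt1 at 6.53 to 8.89 CPM. In CREX they span 7.02 to 89.8 CPM, with Shmt1 at 6.70 to 7.49 CPM. The part of the markers in these values was not tested.

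Psat1 also rose in CR muscle, where its control level was 3.22-fold below that of BAT. It stood at 0.506, 0.652, 0.679 and 0.749 CPM in control and at 1.32, 0.830 and 2.10 CPM in CR, which did not overlap, and the log2 fold change was 1.13 (2.19-fold, SE 0.33, edgeR adjusted p = 0.0480). The call was close to the threshold. It was lost without CR replicate 1 (edgeR adjusted p = 0.0582), without CR replicate 3, the highest library (log2 0.72, edgeR adjusted p = 0.197), and without any of the 4 control libraries (0.0770 to 0.109). The EX libraries (0.678 to 1.21 CPM) and the CREX libraries (1.71, 0.739 and 1.03 CPM) overlapped, at log2 0.38 (SE 0.35, edgeR adjusted p = 0.476), and CREX against CR was log2 -0.30 (SE 0.44, edgeR adjusted p = 0.999). CR replicate 3 also had the highest hepatocyte sum (301 CPM) and the highest Schwann and nerve sum of CR muscle (204 CPM, against 47.7 and 56.2 CPM), and their part was not tested. Phgdh in muscle was 0.465 to 1.37 CPM in control and 0.869 to 1.68 CPM in CR (log2 0.29, SE 0.36, edgeR adjusted p = 0.641). Psph was 5.11 to 7.59 CPM in control and 4.74 to 6.98 CPM in CR (log2 -0.11, SE 0.18, edgeR adjusted p = 0.726).

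Mthfd2, the mitochondrial dehydrogenase and cyclohydrolase that follows Shmt2, fell in CR muscle. It stood at 1.98, 3.26, 3.03 and 3.83 CPM in control and at 1.93, 1.62 and 1.07 CPM in CR, where the highest CR library lay just under the lowest control library. The log2 fold change was -0.97 (SE 0.27, edgeR adjusted p = 0.0384). The call was lost when all muscle groups were fitted together (edgeR adjusted p = 0.0505) and without CR replicate 2 or 3 or control replicate 2, 3 or 4 (0.0859 to 0.110). In CREX against EX, Mthfd2 was at 1.46, 2.38 and 2.30 CPM against 3.85, 3.17, 1.67 and 3.77 CPM (log2 -0.60, SE 0.30, edgeR adjusted p = 0.201).

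**Figure D5:**
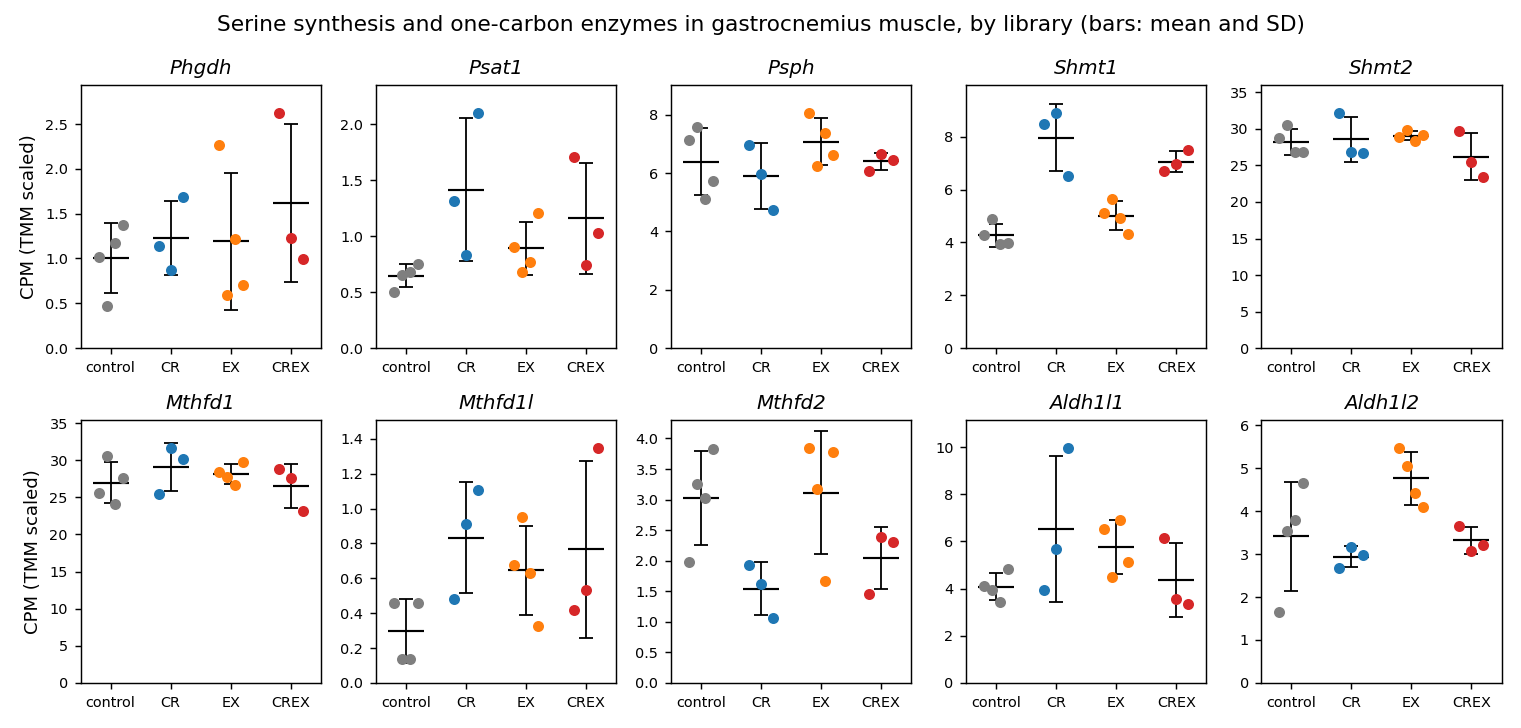
CPM of the 10 enzymes in each SkM library, scaled by TMM factors, with group means and SD as bars (control and EX n = 4, CR and CREX n = 3). Shmt1 lies between 6.53 and 8.89 CPM in the CR and CREX libraries and between 3.94 and 5.65 CPM in the control and EX libraries.

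Aldh1l1, about 2-fold higher under restriction in BAT, was not called in muscle. It stood at 4.09, 3.96, 3.44 and 4.82 CPM in control, at 3.95, 5.69 and 9.97 CPM in CR, at 6.52, 4.48, 6.91 and 5.12 CPM in EX and at 6.16, 3.57 and 3.33 CPM in CREX, with all groups overlapping. The log2 fold change was 0.69 (SE 0.27, edgeR adjusted p = 0.116) for CR against control and -0.41 (SE 0.25, edgeR adjusted p = 0.284) for CREX against EX. A single library decided each of these. Without CR replicate 1, Aldh1l1 was called upward in CR (log2 0.93, edgeR adjusted p = 0.0144), and without CREX replicate 1 it was called downward in CREX against EX (-0.74, edgeR adjusted p = 0.0194). The 2 highest CR libraries were those with hepatocyte sums of 284 and 301 CPM, and CREX replicate 1 had the highest sum of its group (89.8 CPM). The part of the hepatocyte markers in the Aldh1l1 values was not tested. The mitochondrial paralog Aldh1l2 was at 5.48, 5.06, 4.43 and 4.10 CPM in EX and 3.66, 3.08 and 3.21 CPM in CREX, which did not overlap (log2 -0.52, SE 0.16, edgeR adjusted p = 0.0618, and 0.0300 without CREX replicate 1).

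Mthfd1l was 0.136 to 0.460 CPM in control and 0.483 to 1.11 CPM in CR muscle (log2 1.47, SE 0.47, edgeR adjusted p = 0.0644), called without CR replicate 1. Shmt2 and Mthfd1, the most abundant of the set in muscle, had absolute log2 fold changes of at most 0.15 in all 5 comparisons between groups. Over the set, 3 of 10 enzymes were called in CR against control muscle (Shmt1 and Psat1 upward, Mthfd2 downward), against 9.6% of all 13173 genes tested (4.27% upward, 5.32% downward). The call fell on 0 of 10 in CREX against EX, against 8.87% of 13112 genes, and on 1 of 10 (Shmt1) in CREX against control, against 11.8% of 13114 genes (5.28% upward). EX against control gave 0 of 10 and 0.0775% of 12907 genes. All 10 enzymes were higher in EX than in control, by a median log2 of 0.23 beside 0.00017 over all genes. An unadjusted p under 0.05 was seen for 2 of them and for 884 of the 12907 genes. CREX against CR gave 0 of 10 and 0 of 13068 genes by edgeR (0.0%), with 0 enzymes and 477 genes at an unadjusted p under 0.05. The interaction gave 0 of 10 and 0 of 13610 genes (0.0%), with 1 enzyme and 669 genes at an unadjusted p under 0.05.

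The responses of both tissues were then compared in shared fits. The CR response of Shmt1 was lower in BAT than in muscle (log2 difference -0.67, SE 0.18, edgeR adjusted p = 0.0300). It was the only 1 of the 9 enzymes other than Psat1 to differ, against 7.58% of 14369 genes (3.65% lower in BAT). In 14 fits without a library each, 9 lost that call, at edgeR adjusted p between 0.0501 and 0.0980, the losses coming without BAT CR replicate 1, 2 or 4, BAT control replicate 1 or 2, SkM CR replicate 1 or 2, or SkM control replicate 3 or 4. For CREX against EX, the response of Shmt1 was again lower in BAT (-0.52, SE 0.13, edgeR adjusted p = 0.0315), and that of Aldh1l1 was higher in BAT (1.37, SE 0.32, edgeR adjusted p = 0.0266). These were 2 of the 9 enzymes other than Psat1, against 5.58% of 14410 genes (3.03% higher and 2.55% lower in BAT). Aldh1l1 lost its call without BAT CREX replicate 2 or 4, BAT EX replicate 2, or SkM CREX replicate 2 or 3 (0.0503 to 0.0782), and Shmt1 without BAT CREX replicate 2 or 4, BAT EX replicate 2 or 3, SkM CREX replicate 2 or 3, or SkM EX replicate 1, 3 or 4 (0.0536 to 0.0796). The CR response of Psat1 had a log2 difference of -1.005 (SE 0.37), and of -1.26 without SkM CR replicate 2. It shares the BAT CR libraries with the contrast that chose the gene, so both are given as a description. Further calls appeared for the CR response of Aldh1l1 without SkM CR replicate 3 (0.88, edgeR adjusted p = 0.0327) and for the CREX response of Psph without BAT EX replicate 1 (0.70, edgeR adjusted p = 0.0167).

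Genes around these enzymes were read from lists written out for the folate and methyl cycle (25 genes), glycine cleavage and methyl donors (15), serine transport and use (20), and the amino acid response linked to ATF4 (36). In CR against control BAT, where 3.87% of all genes were called upward and 10.7% either way, 2 of 22 tested folate genes rose, Ahcy, which clears S-adenosylhomocysteine (log2 0.77, SE 0.20, edgeR adjusted p = 0.0319), and Slc25a32, the mitochondrial folate carrier (1.04, SE 0.25, edgeR adjusted p = 0.0337). In the same comparison 2 of 11 glycine and methyl donor genes rose, Gnmt, which methylates glycine (1.39), and Amt of the glycine cleavage system (0.89), and 2 of 17 serine genes rose, Serinc3 (0.63) and the neutral amino acid transporter Slc7a10 (1.19). Of 29 genes linked to ATF4, Pck2 rose (0.76) and 3 fell, Atf3 (-2.38), Slc7a1 (-1.13) and Aldh18a1 (-0.83). The medians of the 4 lists were 0.09, -0.07, 0.16 and 0.08 beside 0.0045 over all genes. In CREX against EX BAT, 1.86% of all genes were called upward and 4.48% either way. There Slc25a32 (0.84), Gldc (1.35), Serinc3 (0.61), Slc7a10 (1.35) and Pck2 (0.67) rose. The proline synthesis genes Pycr1 (-2.03) and Aldh18a1 (-1.10) fell. The 4 lists had 1, 1, 2 and 1 genes called upward and 0, 0, 0 and 2 downward, with medians of 0.06, -0.10, 0.13 and -0.02. The value of Gldc is a description, since its likeness to Psat1 in these libraries singled it out. Atf4 itself, named here after its values were seen, stood at 56.7 to 78.9 CPM in control, 33.5 to 56.7 in CR, 44.3 to 65.3 in EX and 42.6 to 53.3 in CREX BAT, and it was lower in CREX than in control (log2 -0.60, SE 0.12, edgeR adjusted p = 0.0139). Of 29 ATF4-linked genes tested there, Chac1 rose (2.94, edgeR adjusted p = 0.0329), and Atf4 and Atf3 (-2.01) fell. The list median was 0.04 beside 0.0057 over all genes, of which 8.3% were called (3.42% upward).

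In CR against control muscle, where 4.27% of all genes were called upward and 5.32% downward, 4 of 12 genes of glycine cleavage and methyl donors rose and 0 fell, with a list median of 0.60 beside 0.005 over all genes. The 3 with the smallest p were Gnmt (log2 2.60, SE 0.23, edgeR adjusted p = 0.000166), the sarcosine dehydrogenase Sardh (1.64) and the betaine methyltransferase Bhmt, which was at most 0.372 CPM in control and 0.658 to 3.28 CPM in CR. In the folate and methyl cycle 2 of 23 rose, Ahcy (0.80) and Mat1a, which was at most 0.0832 CPM in control and 1.10 to 5.96 CPM in CR. Gnmt, Bhmt and Mat1a are abundant in liver, and the CR libraries were those with hepatocyte sums of 65.5 to 301 CPM, whose part was not tested. Serinc3 rose (0.77) and Slc38a4 fell (-0.89) among 15 serine genes, and of 32 genes linked to ATF4, Stc2 (1.86), Chac1 (0.97) and Ddit4 (3.23) rose and Atf5 (-0.65), Vldlr (-0.70) and Nupr1 (-0.73) fell. In CREX against EX muscle, where 8.87% of all genes were called either way, Slc19a1 (0.67), the reduced folate carrier, and Ahcy (0.79) rose among the folate genes, 0 of 10 glycine and methyl donor genes were called, Serinc3 (0.74) and the serine-carrying transporter Slc38a2 (1.03) rose and Srr (-0.60) fell among 16 serine genes, and 4 rose and 2 fell among 32 genes linked to ATF4. Those with the smallest p were Eif4ebp1 (1.21), Slc3a2 (0.60) and Ddit4 (3.44) upward and Atf5 (-0.86) and Ddit3 (-0.91) downward. The 4 medians were 0.01, 0.23, 0.14 and 0.09. The serine and sphingolipid protein gene Serinc3 was thus called upward in all 4 restriction comparisons, from 156 ± 15.3 CPM (SD, n = 3) in control to 241 ± 30.5 CPM (SD, n = 4) in CR BAT and from 165 ± 10.2 CPM (SD, n = 4) to 279 ± 12.1 CPM (SD, n = 3) in muscle.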

How the data were processed

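Bulk RNA-seq of BAT (15 libraries) and gastrocnemius muscle (14 libraries) was analysed, with groups taken from the sample labels. The authors trimmed paired-end reads with trim-galore, aligned them to mm10 with STAR (2.7.10a) and deposited RSEM expected counts per gene symbol, not normalized. RSEM is named as version 1.2.28 in the submitters' processing notes, and the paper names another version. The gene annotation and the strand setting are not given in the sources used here, and RSEM divides reads shared by near-identical copies of a gene by estimate. The deposited expected counts were rounded to whole numbers, since 6.11% of values were not whole. Library totals were 21047242 to 24919377 counts, and a floor of 3 counts is 0.120 to 0.143 CPM. Values are CPM scaled by TMM factors within a tissue, except for the control levels per kb, which were scaled over both tissues.

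Each comparison was fitted on its own groups with edgeR 4.0.16 (R 4.3.3, robust quasi-likelihood, filterByExpr, Benjamini-Hochberg adjustment over all genes tested). A gene was called at adjusted p under 0.05 and fold change above 1.5, without the fold minimum for interactions and for differences of response between tissues. With DESeq2 at these thresholds the paper reports more genes than edgeR called here for EX against control and CREX against CR in both tissues. SEs are the log2 fold change divided by the square root of F. The fits were tested on simulated data. DESeq2 1.42.0, RLE size factors, other count filters, a replicate block, a fit on all groups and leaving out each library were the alternatives, together with a muscle score as covariate. The splits at a muscle score of 4 were added after seeing the data. The tissue comparisons are unpaired, as the labels do not tie tissues to mice. Each library came from a separate sample of its group, and p-values measure the spread between these samples.

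Every enzyme that passed the low-count filter was tested in each comparison, but not every single value is printed. Of each pathway list, up to 3 called genes in each direction with the smallest p are named, with the 5 genes most like Psat1 (Pearson r of log2 CPM, prior count 2) and the most abundant marker genes. The enzymes, lists and tests were chosen with earlier results of these data known. Sequences and motif counts come from RefSeq on GRCm38.p6, and exon lengths from GENCODE on the same build, and all 10 symbols matched. Aldh1l2 has no promoter window here. A result for the folate and methyl cycle list in SkM is not reported here.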

Additional observations from a re-analysis of the deposited data

Results flagged for a closer look

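Psph in EX replicate 1 of BAT (25.7 CPM) stood apart from the other EX libraries, which were at 13.72 to 14.97 CPM, and Shmt2 in CR replicate 2 of BAT (10.6 CPM) stood apart from the other CR libraries, at 13.1 to 13.6 CPM. These were 2 of 50 groups of libraries examined by Dixon's criterion, which flags about 1 in 20 groups by chance. Their cause was not tested.

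The responses of 2 enzymes differed between the tissues by the test of the difference itself. The CR response of Shmt1 was lower in BAT than in SkM (log2 difference -0.67, edgeR adjusted p = 0.0300), and so was its CREX response against EX (-0.52, edgeR adjusted p = 0.0315). The CREX response of Aldh1l1 against EX was higher in BAT than in SkM (1.37, edgeR adjusted p = 0.0266). All 3 calls were lost without certain single libraries, at adjusted p up to 0.0980, 0.0796 and 0.0782. The part of hepatocyte and muscle fibre markers in these differences was not tested.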

How the results depend on the processing

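Of the values for single enzymes under the alternatives, 2146 kept their side of the threshold, 51 lost a call and 17 gained one. Most of the 2146 were of enzymes not called in the main fit, so these totals do not measure how stable the calls were. In CR against control SkM, Mthfd2 lost its call in 7 of 14 alternatives and Psat1 in 6 of 14, while Shmt1 kept it in all 14. The totals include values of Psat1 in BAT that are a description. Where either fit called the enzyme, 0 changed direction. Values called in neither fit were not checked for direction. Some changed sign, such as Psat1 in CR against control BAT (log2 -0.018 to 0.289). The number of enzymes called in CR against control BAT was 1 when at least 10 counts were required in every library, which leaves Mthfd1l untested. In CREX against CR BAT, where the count describes how the set was chosen, it was 0 with the muscle score as a covariate and 0 among libraries with a muscle score over 4 (0 to 1 without a library). In CREX against EX muscle it was 1 with no fold minimum. Leaving out each library gave 2 to 3 for CR against control BAT, 2 to 2 for CREX against EX BAT, 2 to 3 for CREX against control BAT, 1 to 4 for CR against control SkM, 0 to 2 for CREX against EX SkM, 1 to 2 for CREX against control SkM, 9 to 9 between the tissues, 0 to 2 for the difference of CR responses and 0 to 3 for that of CREX responses. It gave 0 to 0 for EX against control in each tissue, CREX against CR SkM and both interactions.

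Same-numbered libraries of different groups share only a number (mean correlation of their deviations -0.273 to 0.141). With the replicate block, the number of enzymes called was 0 for CREX against control SkM, 0 for the difference of CR responses and 1 for that of CREX responses. It was 2 for CR against control and for CREX against EX BAT, 2 for CREX against control BAT, 2 for CR against control SkM, 1 for CREX against CR BAT, 9 between the tissues and 0 for the rest. Single calls moved under the block. Mthfd1l was lost (edgeR adjusted p = 0.0533) and Phgdh gained (0.0208) in CR BAT, Mthfd1l was lost in CREX against control BAT (0.0641), Mthfd2 in CR SkM (0.0727) and Shmt1 in CREX against control SkM (0.0635), and Shmt1 was lost from the differences of CR (0.101) and CREX (0.0677) responses. The counts of CR and CREX BAT and of the differences of response between tissues in this part include Psat1. With Spearman's in place of Pearson's r, 2 of 5 genes in BAT and 0 of 5 in SkM stayed among those most like Psat1. The split under a muscle score of 4 could be fitted only for CR and EX against control BAT. Mthfd1l and, in BAT, Aldh1l2 are limited by depth, at 1 to 34 counts a library. The cause of these changes was not tested.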
